A study of Mus musculus with 12 samples.

Results

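The genes followed belong to the cAMP and CREB response: the phosphodiesterase genes Pde10a, Pde4b and Pde4d, the CREB family gene Crem, the orphan nuclear receptor genes Nr4a1, Nr4a2 and Nr4a3, and Egr1, Per1 and Gem. They are 10 of the 18193 genes that a probe set on the array names alone. They were chosen by name, with earlier results of these data known. Each gene was read from its probe set with the highest mean signal over the 12 arrays, and all 10 reached a signal of 20 on at least 1 array.

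The study measured RNA of 12 mouse cultures on Affymetrix arrays, in 7 groups. Fibroblast-derived neurospheres with cAMP were on 2 arrays: 1 of adult fibroblast origin given EGF and cAMP, and 1 of embryonic fibroblast origin given LIF and cAMP. Fibroblast-derived neurospheres without cAMP were on 2 arrays given LIF, 1 of adult and 1 of embryonic origin. The other groups were ganglionic eminence (GE) neurospheres of embryonic day 14 (1 array), adult skin fibroblasts (1 array), pluripotent cells (the iPS line 38C2 and the ES line EB3), and primary and secondary neurospheres grown from iPS or ES cells (2 arrays each). Neurospheres are aggregates in which neural stem cells grow in suspension, and LIF is a cytokine that acts through STAT3. Per the study's design text the mice were C57BL/6, and no strain is given there for the ES and iPS cells. All neurospheres grew in the medium that the labels call MHM. The labels name neither the form or dose of cAMP, nor the hours of exposure, nor how the fibroblasts were converted. In the embryonic pair the labels differ by cAMP alone, whereas in the adult pair EGF replaced LIF when cAMP was added. An action of cAMP cannot be told apart from one of EGF or of the lack of LIF in the adult pair. In RNA of whole cultures, fewer cells of a type and less RNA per cell cannot be told apart.

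cAMP is made by adenylyl cyclases and activates protein kinase A, which phosphorylates the transcription factor CREB. CREB binds the cAMP response element (CRE) and its half-sites near target genes, and many of its targets are immediate early genes, which are induced without new protein synthesis. Phosphodiesterases break cAMP down, and several of them, like Crem, are themselves induced by cAMP and so limit the response. In the brain CREB takes part in the survival and maturation of young neurons.

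Values are deposited MAS5 signals, which share a trimmed mean of 100 over the probe sets of an array. From 40.5% to 49.1% of probe sets reached 20 on an array. The labelled cell types were set against their markers. Gfap, Hes5 and Slc1a3, genes of radial glia and astrocytes, stood at 514, 1859 and 2777 in GE neurospheres. In the 4 fibroblast-derived cultures Gfap lay between 0.2 and 0.5, Slc1a3 between 15 and 31.7, and Hes5 between 0.7 and 59.7. The stem cell filament gene Nes was at 201 and 79.3 in the cultures with cAMP and at 156 and 71.5 in those without (adult, then embryonic origin), against 133 in GE neurospheres. Of the other markers of this list, Fabp7 lay between 48.1 and 517.5 on the fibroblast-derived arrays, against 8.4 in adult fibroblasts. Sox2 lay between 85.6 and 2092 and Olig2 between 25.8 and 141. In GE neurospheres Fabp7, Sox2 and Olig2 stood at 7197, 3703 and 1032. Pax6 and Sox9 lay between 8.7 and 31.6 on the 4 fibroblast-derived arrays, against 248 and 484 in GE neurospheres. Of the 8 pluripotency markers, Pou5f1, which encodes Oct4, was between 1787 and 2218 on all 4, against 2818 and 2462 in iPS and ES cells. Nanog was at 145 and 1845 with cAMP and at 402 and 1454 without, against 2779 and 2390 in iPS and ES cells, and Zfp42 was at 5.2 and 476 with cAMP and at 79.1 and 346 without, against 3058 and 4299. Gfap was thus near background in these neurospheres, as on every other array but the GE one (0.2 to 3). The primary and secondary neurospheres of iPS and ES origin shared this, but had Hes5 at 180.5 to 989 and Slc1a3 at 202 to 1666. The pluripotency markers other than Pou5f1 were uneven among the fibroblast-derived neurospheres and lowest on the adult EGF and cAMP array.

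The Nr4a genes were the members richest in CRE half-sites among those with a promoter sequence. RefSeq promoters of GRCm38.p6 were found for 7 of the 10 genes (not Crem, Egr1 and Gem), 12 promoters in all. The 250 bases before each start were searched for the full CRE, TGACGTCA, and for its half-site, TGACG or CGTCA on the printed strand, which covers both strands. A full CRE holds both half-sites. No member promoter held the full CRE, which stood in 1.55% of all 32851 promoters. A half-site stood in 6 of the 12 member promoters, of 5 genes, and in 17.8% of all promoters. The promoters of Nr4a1, Nr4a2 and Nr4a3 held 4 half-sites each, and 4 or more stood in 0.137% of all promoters. These 3 are shown because they carry the most half-sites and belong to 1 family. Capitals mark the half-sites, and each sequence is 5′ to 3′ on the strand of its gene.
Nr4a1, chr15:101266596-101266845, plus strand: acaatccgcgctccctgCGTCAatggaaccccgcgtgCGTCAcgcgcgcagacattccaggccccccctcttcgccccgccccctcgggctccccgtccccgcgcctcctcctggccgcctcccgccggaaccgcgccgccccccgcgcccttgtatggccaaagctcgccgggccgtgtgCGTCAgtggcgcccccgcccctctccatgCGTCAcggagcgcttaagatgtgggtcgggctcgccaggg
Nr4a2, chr2:57124004-57124253, minus strand: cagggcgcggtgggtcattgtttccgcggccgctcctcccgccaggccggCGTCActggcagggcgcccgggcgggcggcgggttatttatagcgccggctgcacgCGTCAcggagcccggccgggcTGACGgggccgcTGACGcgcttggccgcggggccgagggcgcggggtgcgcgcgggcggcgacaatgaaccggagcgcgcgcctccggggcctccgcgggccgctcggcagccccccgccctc
Nr4a3, chr4:48045055-48045304, plus strand: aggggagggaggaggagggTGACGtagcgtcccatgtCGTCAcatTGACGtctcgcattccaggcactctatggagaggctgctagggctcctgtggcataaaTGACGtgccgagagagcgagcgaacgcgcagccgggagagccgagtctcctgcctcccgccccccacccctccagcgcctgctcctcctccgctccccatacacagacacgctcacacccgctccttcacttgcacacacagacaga
The half-sites nearest the start began 40 bases before it in Nr4a1, 111 in Nr4a2 and 147 in Nr4a3. A match is a description of the letters and not a binding site. Per1 held a single half-site in each of its promoters and Pde4b in 1 of its promoters, and Pde10a and Pde4d held none in these windows.

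The rule's main comparison set the arrays given cAMP against those without it. In the embryonic pair 9 of the 10 genes were higher with cAMP and 1, Egr1, was lower. In the adult pair 5 were higher and 5 lower, and none differed by 2-fold. The median difference of the 10 genes, on the scale of log2(signal + 5), was 1.25 in the embryonic pair and -0.07 in the adult pair, against medians of 0.02 and -0.01 over all 13650 genes tested. In the embryonic pair 6 members were higher by 2-fold or more (a log2 difference of at least 1), where 2.2% of all genes were, and 1 was lower, where 1.97% of all genes were (4.17% in either direction). In the adult pair 0 of 10 passed 2-fold in either direction, although 10.9% of all genes did. At a log2 difference of 0.5, a threshold added after seeing the data, all 10 members passed in the embryonic pair, where 17.7% of all genes did, and 3 in the adult pair, where 30.1% did. Over all genes 0.601% passed 2-fold the same way in both pairs, and no member did. Since the members were chosen with earlier results of these data known, these shares and medians describe them and are not a test. Adding 5 to the signal understates the change of dim genes.

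**Figure D1:**
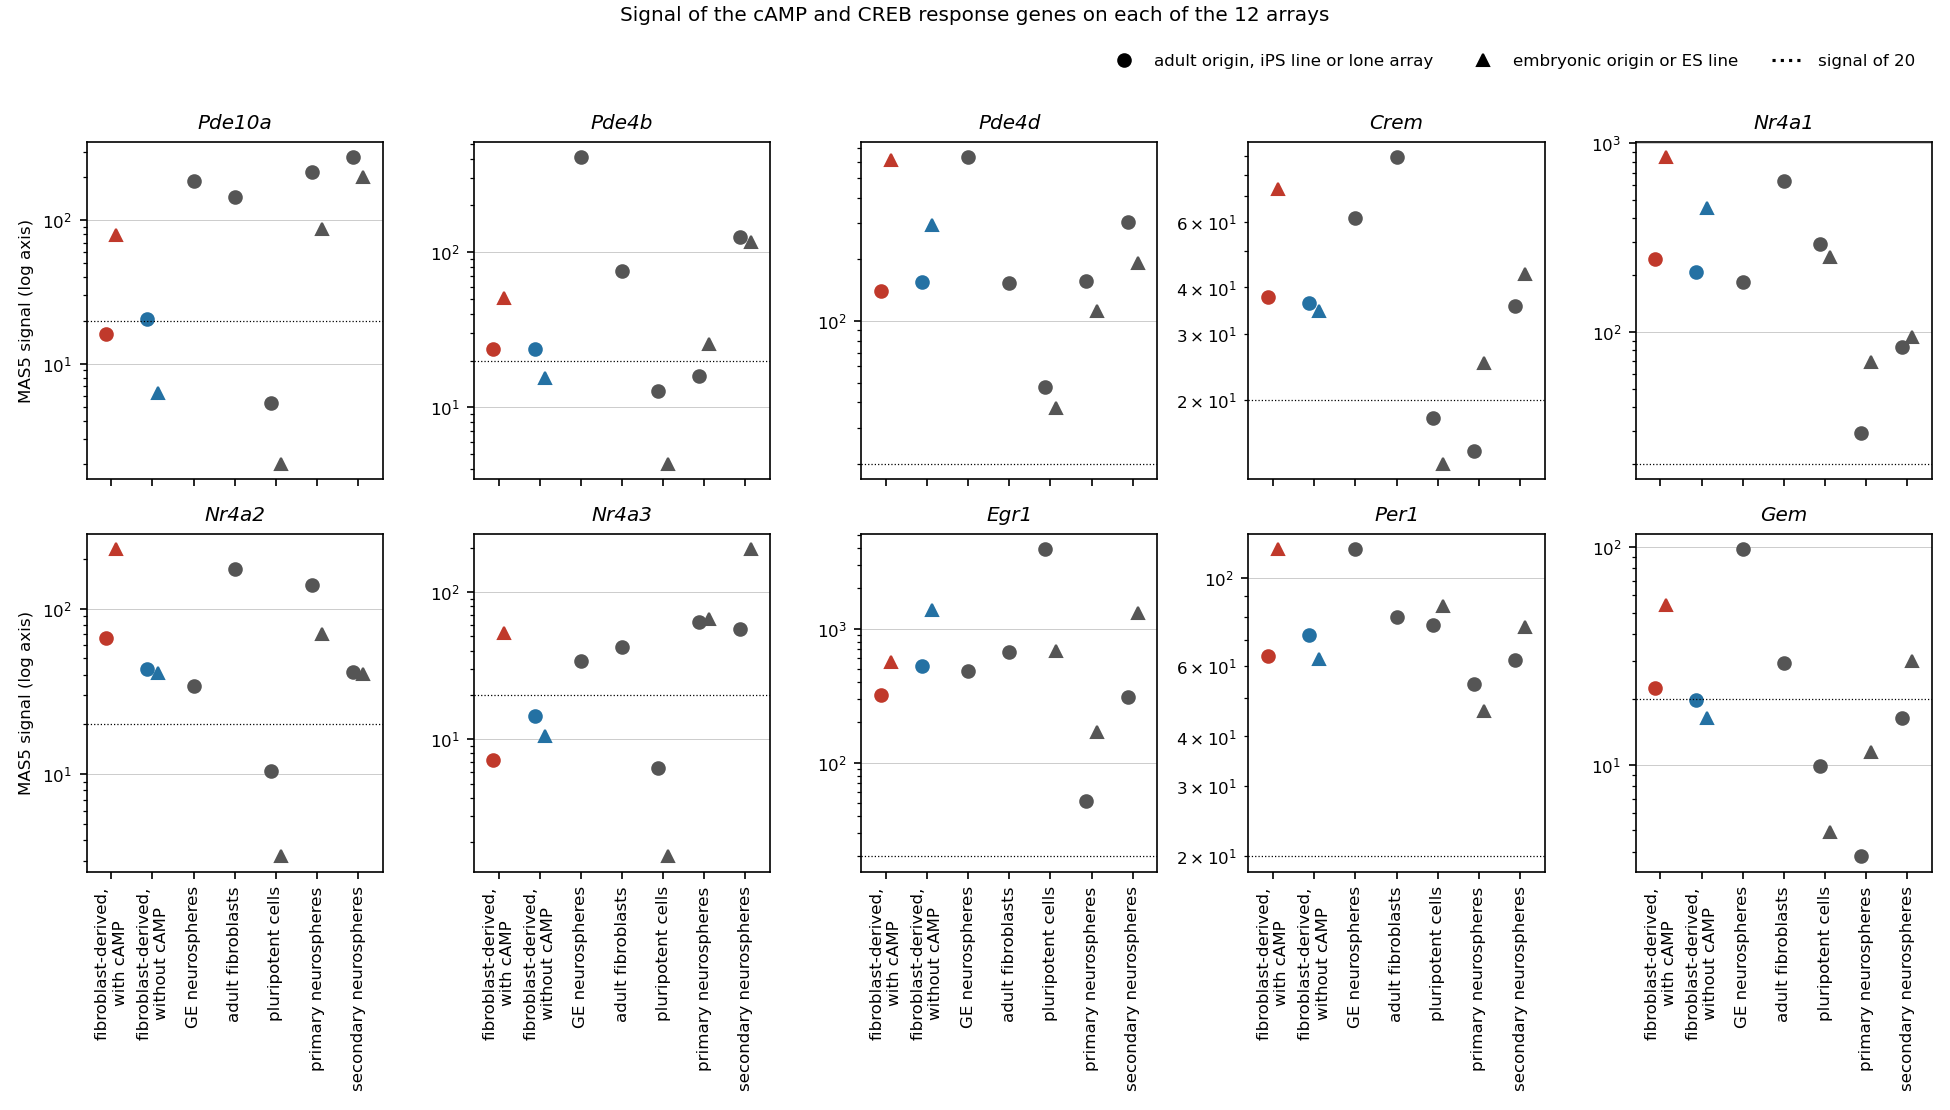
MAS5 signal (log axis) of each of the 10 genes on each of the 12 arrays, by group; red marks fibroblast-derived neurospheres with cAMP, blue those without, circles adult origin, iPS lines or lone arrays, triangles embryonic origin or ES lines, and the dotted line a signal of 20. The red triangle, the embryonic LIF and cAMP array, lies above the blue triangle in 9 panels and below it for Egr1, at 563 against 1385.

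Among the phosphodiesterases, Pde10a breaks down both cAMP and cGMP and is abundant in striatal neurons, which arise from the ganglionic eminence. Its signal was 79.2 on the embryonic LIF and cAMP array and 16 on the adult EGF and cAMP array, against 6.3 and 20.4 on the LIF arrays of embryonic and adult origin. It was 188 in GE neurospheres, 145 in adult fibroblasts, 5.3 and 2 in iPS and ES cells, 218 and 87.1 in primary and 277 and 202 in secondary neurospheres of iPS and ES origin. The highest of the fibroblast-derived cultures thus lay below every neurosphere culture of brain, iPS or ES origin and below the fibroblasts. The difference was 2.90 in the embryonic pair, larger than in 99.9% of genes in signed order, and -0.27 in the adult pair. Only the embryonic LIF and cAMP array was clearly above 20 among the 4, and signals near or under 20 are noisy in MAS5. Its other measured probe sets were also higher with cAMP in the embryonic pair (0.70 and 1.16), and in the adult pair they were higher too (0.62 and 0.26), opposite in sign to the brightest one.

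Pde4b and Pde4d break down cAMP and not cGMP. Pde4b stood at 50.8 on the embryonic and 23.8 on the adult array with cAMP, against 15.4 and 23.6 on the LIF arrays. Its level was 412 in GE neurospheres, 75.2 in adult fibroblasts, 12.8 and 4.3 in iPS and ES cells, 15.9 and 25.5 in primary and 126 and 117 in secondary neurospheres. The adult-derived arrays differed by 0.01 and the embryonic pair by 1.45. Its 2 other measured probe sets gave 1.64 and 1.91 in the embryonic pair, and -0.35 and -0.36 in the adult pair.

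Pde4d stood at 615 on the embryonic and 140.4 on the adult array with cAMP, against 295 and 156 on the LIF arrays. Both embryonic-derived arrays were above both adult-derived arrays, so the arrays with and without cAMP overlapped, and the within-pair differences were 1.05 and -0.14. Its level was 634 in GE neurospheres, 154 in adult fibroblasts, 47.4 and 37.6 in iPS and ES cells, 156 and 112 in primary and 304 and 191 in secondary neurospheres. The embryonic LIF and cAMP array came second of the 12, next to the GE array.

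Crem encodes activators and repressors of the CREB family, among them the inducible repressor ICER, which starts from an internal promoter that cAMP switches on. Its signal was 73.4 on the embryonic and 37.8 on the adult array with cAMP, against 34.6 and 36.3 on the LIF arrays. The other fibroblast-derived arrays were thus nearly level, and the embryonic array with cAMP stood apart (difference 0.99, against 0.05 in the adult pair). Crem was at 61.5 in GE neurospheres, 89.3 in adult fibroblasts, 17.9 and 13.5 in iPS and ES cells, 14.6 and 25.2 in primary and 35.6 and 43.5 in secondary neurospheres. Its other measured probe set differed by 0.59 in the embryonic pair and by -0.20 in the adult pair. The probe sets were not matched to ICER or to the longer isoforms.

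The Nr4a genes encode orphan nuclear receptors that act as transcription factors and are classical immediate early targets of CREB. Nr4a1 (Nur77) stood at 848 on the embryonic and 244 on the adult array with cAMP, against 454 and 208 on the LIF arrays. Both pairs were higher with cAMP, by 0.89 and 0.23, but the embryonic LIF array lay above the adult array with cAMP. It was at 184 in GE neurospheres, 629.9 in adult fibroblasts, 294 and 250.3 in iPS and ES cells, 29.1 and 69.9 in primary and 83.9 and 94.6 in secondary neurospheres. All 4 fibroblast-derived arrays were therefore above the neurospheres of brain, iPS or ES origin.

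Nr4a2 (Nurr1), a factor needed for midbrain dopamine neurons, showed on its brightest probe set its highest signal of the 12 arrays on the embryonic LIF and cAMP array. It stood there at 229 and on the adult array with cAMP at 66.4, against 41.1 and 43.1 on the LIF arrays. Here the arrays with and without cAMP did not overlap, and the differences were 2.34 in the embryonic and 0.57 in the adult pair. Nr4a2 was at 34.2 in GE neurospheres, 173 in adult fibroblasts, 10.5 and 3.2 in iPS and ES cells, 139.6 and 70.2 in primary and 41.5 and 40.3 in secondary neurospheres. Its 3 other measured probe sets gave 1.28 to 2.21 in the embryonic and 0.41 to 0.78 in the adult pair, so that all 4 were higher with cAMP in both. These other probe sets stood at 145, 55.6 and 67.8 on the embryonic LIF and cAMP array, against 147, 60.9 and 62.9 in adult fibroblasts.

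Nr4a3 (Nor1) stood at 52.5 on the embryonic and 7.2 on the adult array with cAMP, against 10.6 and 14.3 on the LIF arrays. The adult array with cAMP was the lowest of the 4 and the embryonic one the highest, with differences of -0.66 and 1.88. Of these 4 signals 3 were under 20. Nr4a3 was at 34 in GE neurospheres, 42.3 in adult fibroblasts, 6.4 and 1.6 in iPS and ES cells, 62.1 and 65.9 in primary and 56.4 and 196 in secondary neurospheres.

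Egr1 encodes a zinc finger factor that is induced by CREB and, through serum response factor, by growth factors and ERK. It was the member that was lower with cAMP in both pairs, at 563 on the embryonic and 321 on the adult array with cAMP, against 1385 and 525 on the LIF arrays. The differences were -1.29 and -0.70. Its signals were 485 in GE neurospheres, 673 in adult fibroblasts, 3909 and 674 in iPS and ES cells, 51.6 and 168 in primary and 306 and 1312 in secondary neurospheres. Within the pluripotent, primary and secondary groups the 2 arrays differed from each other by more than 3-fold, more than the arrays of any pair here. Fos, another immediate early gene of the same stimuli, was at 586 and 152 with cAMP and at 679.5 and 311 without, and at 4624 and 56.8 in iPS and ES cells.

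Per1, a repressor of the circadian clock that light and cAMP induce in mammals, stood at 118 on the embryonic and 63.7 on the adult array with cAMP, against 62.5 and 71.9 on the LIF arrays. Across all 12 arrays it ranged from 46.4 to 118, with the lowest ratio of highest to lowest signal among the 10 genes. It was at 118 in GE neurospheres, 79.9 in adult fibroblasts, 76.4 and 85.2 in iPS and ES cells, 54.1 and 46.4 in primary and 62.4 and 75.5 in secondary neurospheres. The difference was 0.87 in the embryonic and -0.16 in the adult pair.

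Gem, a small GTPase that inhibits voltage-gated calcium channels, stood at 54 on the embryonic and 22.6 on the adult array with cAMP, against 16.5 and 19.8 on the LIF arrays. The groups did not overlap, although 3 of the 4 signals were close to 20. The differences were 1.46 and 0.15. Gem was at 97.9 in GE neurospheres, 29.4 in adult fibroblasts, 9.9 and 4.9 in iPS and ES cells, 3.8 and 11.5 in primary and 16.5 and 30 in secondary neurospheres.

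**Figure D2:**
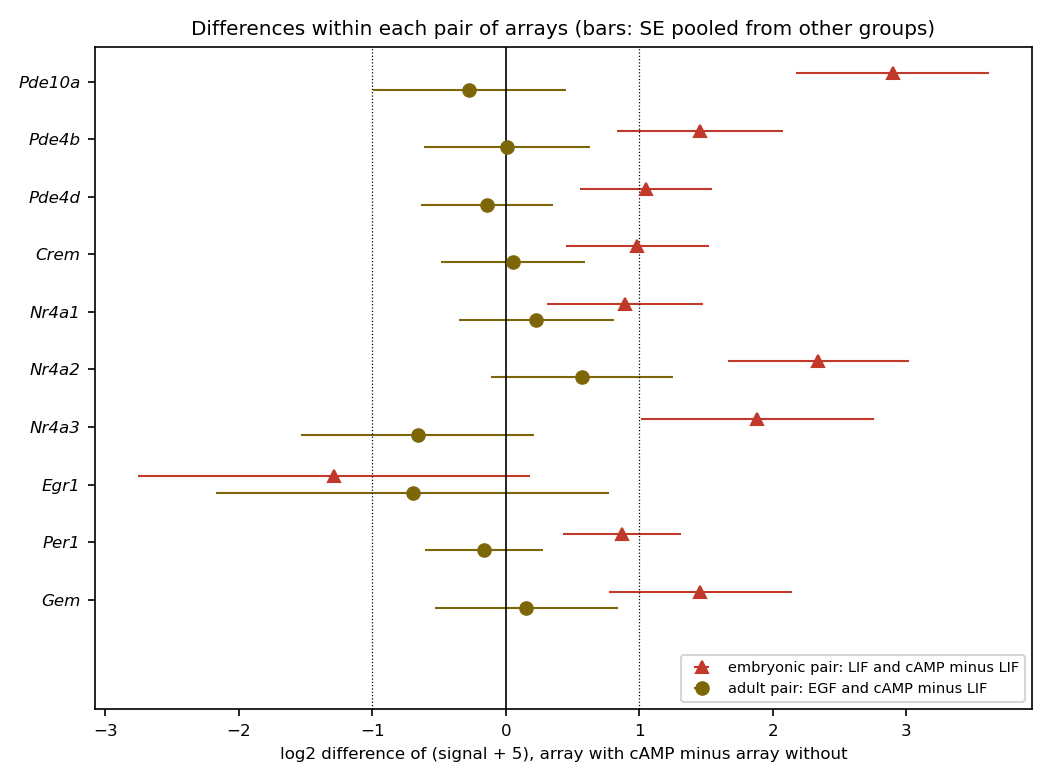
Log2 difference of (signal + 5), array with cAMP minus array without, for each of the 10 genes in the embryonic pair (triangles) and the adult pair (circles); bars are standard errors whose spread comes from the iPS and ES arrays, and dotted lines mark 2-fold. The triangles lie above 0 for 9 genes, up to 2.90 for Pde10a, and the circles lie between -0.70 for Egr1 and 0.57 for Nr4a2.

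The arrays with and without cAMP were tested with limma in 1 fit of all 12 arrays with the fibroblast origin as a term. None of the 10 genes passed an adjusted p under 0.05, and 0% of all genes did, while 256 genes (1.88%) had an unadjusted p under 0.05. Of the members, 1 had such an unadjusted p: Nr4a2, with a mean difference of 1.46 ± 0.54 (SE, limma adjusted p = 1), higher with cAMP in both pairs. Pde10a followed at 1.31 ± 0.74, Gem at 0.81 ± 0.51 and Pde4b at 0.73 ± 0.48, and Egr1 was at -0.99 ± 0.96. The median of the 10 was 0.58, against 0.00 over all genes.

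Since the pairs differed in medium, each was also tested by itself with limma, in a fit chosen after the values were seen. In it a lone array was assumed to vary as the iPS and ES arrays of the other groups do. In the embryonic pair no gene passed the adjustment (0% of all genes), and 1.32% of all genes had an unadjusted p under 0.05. Among the members these were Pde10a (2.90 ± 0.72) and Nr4a2 (2.34 ± 0.68), both with a limma adjusted p of 1. In the adult pair 1 gene passed the adjustment (0.00733% of all genes), which was no member, and 3.61% of all genes had an unadjusted p under 0.05, again with no member. For the embryonic difference minus the adult one, 0% of all genes passed and 2.51% had an unadjusted p under 0.05, among the members Pde10a. The standard errors ran from 0.44 for Per1 to 1.47 for Egr1. Each within-pair difference is 1 array against 1 and has no replicate check of its own.

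**Figure D3:**
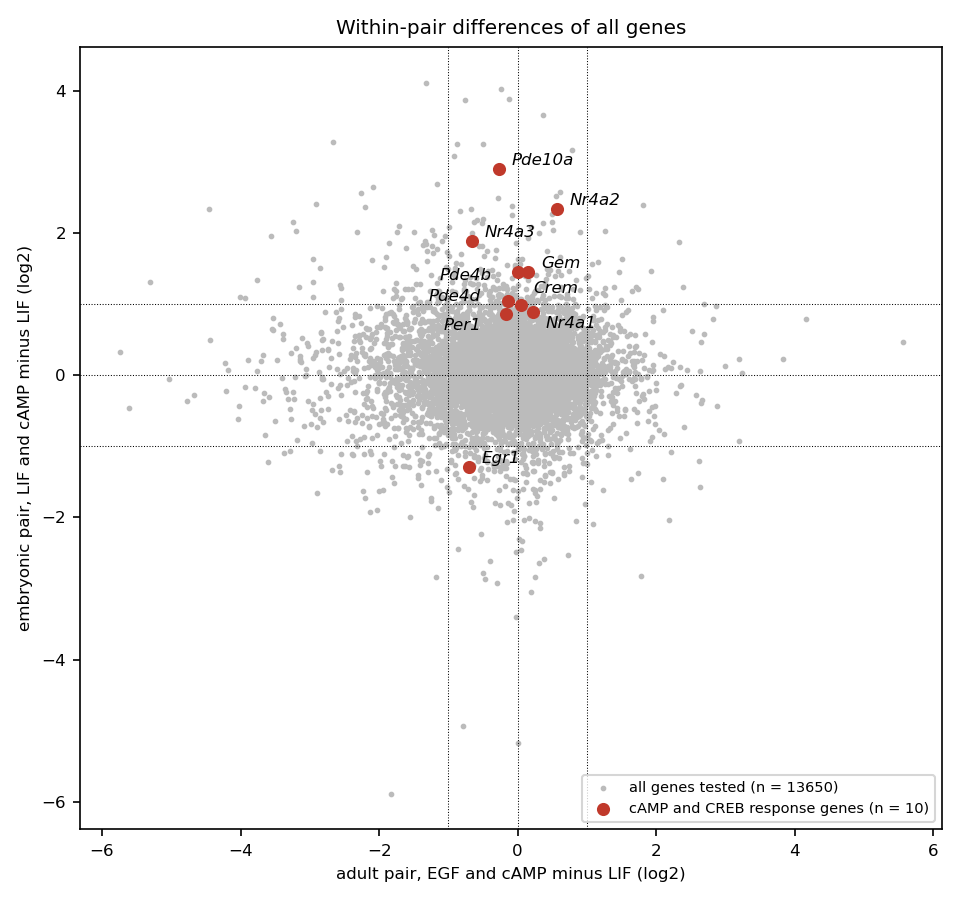
Log2 difference of (signal + 5) within the adult pair (horizontal axis) against that within the embryonic pair (vertical axis) for the 13650 genes tested (grey), with the 10 cAMP and CREB response genes in red; dotted lines mark 0 and 2-fold. In red, 9 members lie above 0 on the vertical axis, and all lie between the 2-fold lines of the horizontal axis.

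Other genes of the pathway were read from 4 lists. Among genes of cAMP synthesis and protein kinase A, 0 of 27 were higher and 1 was lower by 2-fold in the embryonic pair, with a median of -0.13. Their median difference in the adult pair was 0.04, with 1 higher. Of 13 other phosphodiesterases, 2 were higher by 2-fold in the embryonic pair, Pde8a and Pde1a, and none lower (median 0.19), where 2.2% of all genes were higher. In the adult pair 1 was higher and 2 lower (median -0.31). Pde8a, a cAMP-specific enzyme, stood at 206 on the embryonic and 29.3 on the adult array with cAMP, against 78.2 and 53.2 on the LIF arrays. Of 13 genes of the CREB family and its coactivators, none differed by 2-fold in the embryonic pair and 1 was lower in the adult pair. Creb1 itself was at 316 on the embryonic and 634 on the adult array with cAMP, against 368 and 442 on the LIF arrays. Of 35 other CREB targets and immediate early genes, 4 were higher and 1 lower by 2-fold in the embryonic pair (median 0.14), and 1 was higher and 12 lower in the adult pair (median -0.66). Over all genes 2.2% were higher by 2-fold in the embryonic pair, and 8.01% were lower in the adult pair. With limma, 0 members of any of these 4 lists passed with against without cAMP, as for all genes. Genes named from these lists were picked after their values were seen.

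Markers of other cell types differed between the arrays of a pair. In the embryonic pair the summed signal of 7 macrophage markers was 416 with cAMP and 2046 without, with 4 of 7 and 7 of 7 at 20 or more, and Lyz2 was at 42.3 and 1434. Of the macrophage markers 6 were lower with cAMP and 1, Cd68, was higher (205 and 150). The 5 trophoblast markers summed to 964 and 1547, mostly through Tpbpa (687 and 1325), with 2 markers higher and 3 lower (median difference -0.20). The 6 endothelial markers summed to 946 and 479 (Tek at 854 and 364, Cdh5 at 21.9 and 60.1). The 9 fibroblast markers summed to 3794 and 2639, with 5 higher and 4 lower (median difference 0.35) and Dcn at 978 and 151. The sums of pluripotent markers (12551 and 12057) and of the 9 neural stem and glial markers (2394 and 2178) were closer. The neural stem and glial sums were mostly Sox2, at 2092 and 1826. Of these 9 markers 6 were higher and 3 lower with cAMP (median difference 0.14), with Pax6 at 8.7 and 24.1. The fibroblast markers of the adult pair summed to 656 with EGF and cAMP and 5440.0 with LIF, with all 9 lower by 2-fold or more. The pluripotent markers summed to 2794 and 7738 in that pair, the neuronal markers to 2524 and 1540, and the neural stem and glial markers to 857 and 1612. The last sum fell mostly through Sox2, at 85.6 and 791. Of the 9 neural stem and glial markers 4 were higher and 4 lower with EGF and cAMP, with a median difference of 0. No marker of these lists was at exactly 0 on the 4 arrays, and Gfap, Tie1 and Emcn were the lowest, at 0.1 to 6.8. Their part in the differences of the 10 genes was not tested.

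Genes of the media were read as a check, and those named were picked after their values were seen. Socs3, a feedback inhibitor induced by LIF, stood at 1822 on the embryonic and 1306 on the adult array with cAMP, against 1529 and 1716 on the LIF arrays. Of the 8 genes of the LIF check, 2 were higher and 6 lower on the adult EGF and cAMP array than on the adult LIF array, 2 of them by 2-fold. Bcl3 was higher there, at 157 against 106, and Cish at 56.7 against 46.1, so these genes did not all follow the labelled LIF. The ERK feedback genes Dusp6 and Spry4 were at 808 and 235 on the adult EGF and cAMP array, against 980.1 and 152 on the adult LIF array. Of the 8 genes of the EGF check, 2 were higher and 6 lower on the adult EGF and cAMP array (median difference -0.21), 1 of them lower by 2-fold. In the embryonic pair, where EGF does not differ in the labels, 1 was higher and 7 lower with cAMP (median difference -0.22). These values, of 1 array against 1 in each pair, thus do not show whether EGF acted.

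The arrays given cAMP were then set against each other group, in comparisons that share these 2 arrays. In each of the 8 calls of members in the fit of all 12 arrays, the fibroblast-derived LIF arrays lay on the same side. Those calls are thus not particular to the arrays with cAMP. Against the pluripotent cells 9 of the 10 genes were higher, where 57.6% of all genes were. Of the 10, 3 passed as higher, where limma called 15.2% of all genes at an adjusted p under 0.05 (11.8% higher, 3.36% lower). Nr4a2 rose by 3.52 ± 0.54 (adjusted p = 0.00789), Pde4d by 2.67 ± 0.38 (adjusted p = 0.00594) and Crem by 1.49 ± 0.38 (adjusted p = 0.0413), with both cAMP arrays above both pluripotent arrays in each. The members' median was 1.63, against 0.15 over all genes. Pde4b (1.64, adjusted p = 0.0567), Gem (1.73, adjusted p = 0.0577) and Pde10a (2.31, adjusted p = 0.0726) did not pass, nor did Egr1, at -1.92 ± 0.96 (adjusted p = 0.206). After scaling to a common median, the median of all genes moved by -0.37 and 40.5% of calls were higher, against 77.9% on the deposited scale, and under quantile normalization the shift was -0.17. Crem then missed the threshold, with a limma adjusted p of 0.0642 and 0.0792. It kept its call in 10 of 23 alternatives and lost it also with no filter, on leaving out any of several single arrays and on its other probe set, which gave 0.84 (limma adjusted p = 0.114). Without the embryonic LIF and cAMP array none of the 3 passed (limma adjusted p of 0.116 for Pde4d, 0.135 for Nr4a2 and 0.388 for Crem).

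Against the adult fibroblasts 0 of the 10 genes passed, where limma called 14.1% of all genes (8.85% higher, 5.25% lower), and 0 of the 10 had an unadjusted p under 0.05, where 31.2% of all genes had one. The members' median was -0.56, against 0.22 over all genes. The differences ran from -1.84 ± 0.91 for Pde10a to 0.92 ± 0.46 for Pde4d, and the fibroblasts were on 1 array. With a common median, the median of all genes moved by -0.44 and higher genes made up 32.5% of calls, against 62.8% on the deposited scale. Under quantile normalization it moved by -0.15. Another probe set of Pde10a was at -2.09 (limma adjusted p = 0.0155), which passed as lower against the fibroblasts.

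Against the GE neurospheres 1 of the 10 genes passed, where limma called 19.9% of all genes (10.6% higher, 9.32% lower). This was Pde4b, which fell by 3.38 on the log2 scale (SE 0.58, adjusted p = 0.00844), to 50.8 and 23.8 in the arrays with cAMP, against 412. Without the adult EGF and cAMP array its limma adjusted p was 0.081, and 1 of its other probe sets was at -1.03 (limma adjusted p = 0.353). Pde10a (-2.20), Gem (-1.35) and Pde4d (-1.09) were at negative values and Nr4a2 (1.72) and Nr4a1 (1.28) at positive ones, with limma adjusted p from 0.101 to 0.171. The members' median was -0.49, against 0.07 over all genes.

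Against the primary neurospheres Nr4a1 rose by 3.19 ± 0.39 (limma adjusted p = 0.00238), and no other member passed, where limma called 18.5% of all genes (9.25% in each direction). With a common median the median of all genes moved by -0.20. Gem was at 1.74 ± 0.51 (adjusted p = 0.0509) and Crem at 1.25 ± 0.38 (adjusted p = 0.0596). With the iPS or ES line as a further replicate block, Gem (limma adjusted p = 0.0478) and Pde4d (1.13, adjusted p = 0.0435) passed as well. Without the embryonic LIF and cAMP array Nr4a1 was at 2.86, a value that the origin difference of the LIF arrays enters.

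Against the secondary neurospheres 3 of the 10 genes passed, where limma called 20.2% of all genes (9.11% higher, 11% lower). With a common median the median of all genes moved by 0.12. Nr4a1 rose by 2.29 ± 0.39 (adjusted p = 0.00718), with both cAMP arrays above both secondary arrays. Pde10a fell by 2.52 (SE 0.74, adjusted p = 0.0496) and Pde4b fell by 1.65 (SE 0.48, adjusted p = 0.0469). Both stood just inside the threshold and left it in 15 and 16 of 25 alternatives, among them a common median (limma adjusted p of 0.061 and 0.0572). Without the adult EGF and cAMP array Pde10a and Pde4b were both at -0.93 and Nr4a1 at 2.63. Without the embryonic LIF and cAMP array Pde10a was at -4.11, Pde4b at -2.37 and Nr4a1 at 1.96. The 1 array with cAMP left in these fits is of 1 origin. The origin difference of the LIF arrays therefore enters these values, which are not plain differences of the arrays. The other probe sets of Pde10a were at -0.74 and -0.99 and those of Pde4b at -1.06 and -0.83, and none of them passed. Nr4a3, at -2.07 ± 0.73, did not pass (adjusted p = 0.0852).

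**Figure D4:**
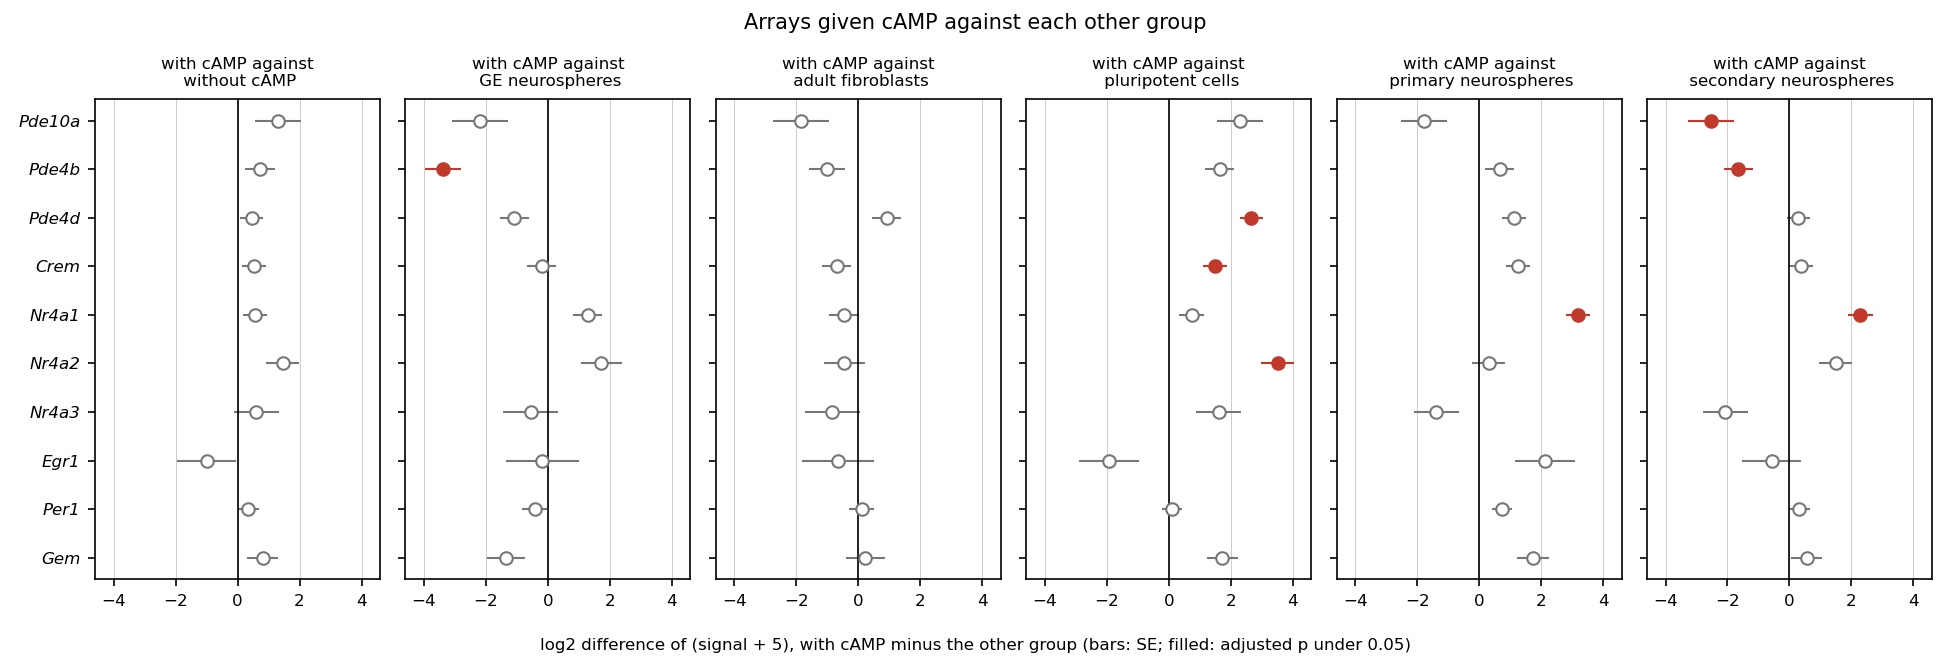
Log2 difference of (signal + 5), arrays with cAMP minus each other group, for the 10 genes; bars are standard errors of the limma fit and filled red points have an adjusted p under 0.05. Filled points stand for Pde4b against GE neurospheres, for Pde4d, Crem and Nr4a2 against pluripotent cells, for Nr4a1 against primary neurospheres, and for Pde10a, Pde4b and Nr4a1 against secondary neurospheres.

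The 10 genes did not share 1 pattern over the 12 arrays. Pearson's r of log2(signal + 5) was 0.893 between Pde10a and Nr4a3, 0.874 between Crem and Gem and 0.810 between Pde4b and Gem, and it was -0.504 between Pde10a and Egr1 and -0.417 between Nr4a1 and Nr4a3. The genes with the most similar pattern to a member among all tested were Pvr for Nr4a1 (0.972), Igfbp4 for Nr4a3 (0.965), Lrch3 for Pde4b (0.963), Calcoco1 for Gem (0.960), Tspan31 for Crem (0.957) and Chrna4 for Pde10a (0.956). They were Sema3c for Nr4a2 (0.942), Rin2 for Pde4d (0.928), Slc20a2 for Egr1 (0.915) and Upk2 for Per1 (0.828). These values describe 12 arrays that share lines and media, and were not tested.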

How the data were processed

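The series holds 12 arrays of mouse RNA, each with 45101 probe sets. The authors deposited intensity values from MAS5 on a linear scale, and the submitters' processing notes name Affymetrix Expression Console (version 1.1). On each array the 2%-trimmed mean was 100, so a change in total RNA does not show. No detection calls were used, and the number of arrays limits the precision. Probe sets were named by the platform's annotation, of which 34945 had 1 symbol, 932 several and 9160 none, and 0 symbols changed against GRCm38.p6. Genes whose brightest probe set reached 20 on 1 array (13650) were tested on log2(signal + 5), with limma 3.58.1 in R 4.3.3 (lmFit, eBayes with an intensity trend, 2-sided), with Benjamini-Hochberg adjustment over all genes. The fit of all 12 arrays had 7 groups and the fibroblast origin as a term, with 4 residual and 3.60 prior degrees of freedom. The fit with each fibroblast-derived array as a group had 3 residual degrees of freedom. The model was run on simulated arrays with independent normal noise and the same cAMP effect in both origins. That run checked the code and does not bear on pairs whose differences are unlike. The labels do not say that the arrays of a group are repeat cultures, so p-values measure the spread between these arrays, which differ in line, origin or medium. All 10 genes were named in every comparison. The rule for genes of the other lists (called, or past 2-fold the same way in both pairs at a signal of 100 or more) picked none. The 2 genes most like each member were taken by Pearson's r, of which the first is given. The members, lists and tests were chosen with earlier results of these data known. Promoter sequences are RefSeq's.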

Additional observations from a re-analysis of the deposited data

Results flagged for a closer look

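Of the 10 genes, 4 were higher with cAMP in the embryonic pair and lower in the adult pair, so their differences pointed opposite ways. The embryonic difference minus the adult one was 3.17 for Pde10a (2.90 and -0.27), 2.54 for Nr4a3 (1.88 and -0.66), 1.19 for Pde4d (1.05 and -0.14) and 1.03 for Per1 (0.87 and -0.16), on the scale of log2(signal + 5). In the limma fit with each fibroblast-derived array as a group, which was chosen after the values were seen, the adjusted p of this difference was 1 for each, and of the 4 only Pde10a had an unadjusted p under 0.05. Over all genes 0 passed in that test and 343 had an unadjusted p under 0.05. The other measured probe sets of Pde10a were higher with cAMP in both pairs. EGF in place of LIF, the origin of the fibroblasts and the response to cAMP cannot be told apart here.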

How the results depend on the processing

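The differences of the 10 genes in the embryonic pair kept their sign in 76 of 76 values from other scalings, pseudocounts, filters and probe sets. A pseudocount or a filter cannot turn the sign of such a difference, so only the scalings and probe sets could. All 8 other probe sets kept it, and every value comes from the same 2 arrays. In the adult pair 11 of 76 turned, among them 5 of the 8 from other probe sets. No call of a member turned its direction. The 8 calls of members were lost in 56 of 192 alternatives, mostly Pde4b (16 of 25) and Pde10a (15 of 25) against secondary neurospheres and Crem against pluripotent cells (13 of 23). Members not called gained a call in 14 of 1204. The number of members called against secondary neurospheres was 1 instead of 3 with a common median, a pseudocount of 1, no filter, a filter at 100 or the mean of probe sets. Against primary neurospheres it was 2 instead of 1 with a pseudocount of 20 or the mean of probe sets, and 3 with eBayes without a trend. With the iPS or ES line as a replicate block it was 3, and this block and the fit with no replicate block (without the origin term) moved no other number of members called by over 1.5 times. With only the groups compared in the fit it was 0 against GE neurospheres, pluripotent cells, primary neurospheres and secondary neurospheres. That fit had no origin term except with against without cAMP, and it holds fewer arrays. Fits that left out a fibroblast-derived array kept the origin term. It was then set by the fibroblast-derived group that still held both origins, and it enters their values and calls. Leaving out 1 array gave 0 to 2 members against GE neurospheres, 0 to 3 against pluripotent cells, 0 to 2 against primary neurospheres, 0 to 3 against secondary neurospheres and 0 against adult fibroblasts and against the arrays without cAMP. Over all genes the calls with only the groups compared were 289 instead of 2713 against GE neurospheres, 7 instead of 1924 against adult fibroblasts, 250 instead of 2072 against pluripotent cells, 1107 instead of 2525 against primary neurospheres and 1732 instead of 2751 against secondary neurospheres. Without the embryonic LIF and cAMP array they were 695, 330, 160, 508 and 556, and without the adult EGF and cAMP array 787, 129, 278, 608 and 727. Other single arrays moved such counts too: 998 against primary neurospheres without the iPS primary array, 704 against pluripotent cells without the ES cells, and 1239 and 1245 against secondary neurospheres without the iPS or the ES secondary array. Without the adult or the embryonic LIF array they were 1271 and 1276 against adult fibroblasts and 1330 for each against pluripotent cells. With against without cAMP, 1 gene was called when either of the embryonic-derived arrays was left out and 0 in the other fits. At a log2 difference of 0.5 in place of 1, a threshold added after seeing the data, 3 members instead of 0 passed in the adult pair and 10 instead of 7 in the embryonic pair. Pde10a, Pde4b, Nr4a3 and Gem were near or under a signal of 20 on several arrays, where MAS5 signals are noisy. The cause of these changes was not tested.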

Other observations

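A few other CREB targets, picked after their values were seen, differed by 2-fold or more in the embryonic pair. Ptgs2, the inducible prostaglandin synthase also called COX-2, stood at 2920.4 on the embryonic LIF and cAMP array and 576 on the embryonic LIF array, and at 194 with EGF and cAMP and 312 with LIF in the adult pair. It was at 2750 in adult fibroblasts and between 1 and 99.3 in GE neurospheres, pluripotent cells and their neurospheres. Ier3, an immediate early gene, was at 1748 and 768 in the embryonic and at 380.3 and 736 in the adult pair, with and without cAMP. Crh, a hypothalamic peptide hormone gene that is a known target of cAMP, was at 48.5 and 8 in the embryonic and at 3.5 and 15.1 in the adult pair.

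Fosl1, an AP-1 factor, was higher with cAMP in both pairs, at 47.8 against 17.4 in the embryonic and 68.8 against 17.5 in the adult pair (1.48 over both, limma adjusted p = 1). Rgs4, a regulator of G protein signalling, was lower in both, at 1.9 against 10.9 and at 18.7 against 89.3 (-1.60, limma adjusted p = 1). Over all genes 82 (0.601%) differed by 2-fold or more the same way in both pairs. Bdnf, a neurotrophin gene with well known CREs, was at 110 and 100.2 in the embryonic pair and at 24.4 and 110 in the adult pair, with and without cAMP.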
